A study of Mus musculus with 16 samples.

Results

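The genes described here are the early growth response factors Egr1, Egr2 and Egr3 and the corepressors that bind them, Nab1 and Nab2. They were taken by gene symbol from the count table of the series, which gave 5 genes of 54532. RNA-seq was done on CD8+ T cells from the spleen of C57BL/6J mice. The cells started out naive and were given repeated activation over 4 days with beads against CD3 and CD28 in low-dose IL-2, so that all 4 groups are TCF1+CD8+ T cells of the same culture protocol. Before RNA was taken, the cells were kept for 1 h with or without prostaglandin E2 (PGE2) at 100 ng/ml and then for a further 4 h in IL-2 at 85 U/ml, either alone (unstimulated) or with 1 bead against CD3 and CD28 per cell (stimulated). Each of the 4 groups (unstimulated untreated, unstimulated PGE2, stimulated untreated and stimulated PGE2) holds 4 replicates numbered 1 to 4. The unstimulated cells had therefore also received IL-2 and earlier beads, and the sources used here do not say what cultures of the same number share, so p-values measure the spread between these samples, which may be technical.

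EGR factors are zinc finger transcription factors whose genes are switched on within minutes of T cell receptor signalling through ERK, serum response factor and NFAT, and they bind a GC-rich site in the genes they control. NAB1 and NAB2 have no DNA-binding domain of their own. They dock on EGR1, EGR2 and EGR3 and mostly repress EGR targets, NAB2 partly by recruiting the CHD4 subunit of the NuRD chromatin complex, and Nab2 is itself a known EGR target, which makes the pair a feedback brake. In T cells EGR1 is tied to activation and cytokine genes, and EGR2 and EGR3 are tied to genes that restrain signalling, such as Cblb and Dgka. PGE2 acts on T cells mainly through the EP2 and EP4 receptors, which raise cyclic AMP.

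The libraries held 22678254 to 42950763 counted reads each, so that Egr2, the scarcest of the 5 genes, still had 56 to 207 counts per unstimulated sample and 435 to 3379 per stimulated sample. All 5 CD8+ T cell markers were present at 218 CPM or more in every sample (CPM, read counts scaled to library size after TMM normalisation), among them Tcf7, the gene for TCF1, at 289 to 1540 CPM. The B cell, myeloid and erythroid markers stayed low, with sums over each list of at most 6.31, 6.57 and 0.423 CPM. The NK list reached 178 CPM through Eomes, which activated CD8+ T cells also express, whereas Ncr1 had no count in any sample. The CD4 T cell list summed to 14.5 to 40.1 CPM, mostly from Zbtb7b (up to 34.4 CPM) and Foxp3 (up to 9.07 CPM), with Cd4 itself at most 1.87 CPM. The part of other cells in the results below was not tested.

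Promoter sequence is shown where it carries the motifs of the signalling described above. RefSeq windows on GRCm38.p6 were available for Egr2, Nab1 and Nab2, and each was searched over the 250 bases before the start site, on both strands, for the CArG box of serum response factor, the half-site of the cyclic AMP response element (TGACG), the whole element (TGACGTCA) and the EGR site (GCGNGGGCG). Of 32851 windows of this length, 1.47% held a CArG box, 17.8% the half-site, 1.55% the whole element and 4.7% an EGR site. RefSeq lists 5 windows for Egr2, and the one at chr10:67537619-67537868, plus strand, held a CArG box at -72 to -63 from the start site and the half-site at -111 to -107 and again, on the other strand, at -55 to -51. These 3 matches are in capitals and do not overlap. Of the other Egr2 windows, that at chr10:67535249-67535498, which reaches the annotated gene start, held none of the motifs, that at chr10:67537316-67537565 held a CArG box and no half-site, and the remaining ones overlap the window shown and hold the same 3 matches.
Egr2 promoter: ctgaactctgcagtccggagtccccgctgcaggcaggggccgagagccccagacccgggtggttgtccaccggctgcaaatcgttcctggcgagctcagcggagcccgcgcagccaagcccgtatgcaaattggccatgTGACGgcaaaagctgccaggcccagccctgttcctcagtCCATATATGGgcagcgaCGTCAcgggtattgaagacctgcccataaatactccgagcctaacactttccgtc

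The Nab1 window, at chr1:52500449-52500698, minus strand, lies before the RefSeq start site but mostly within the annotated gene span given below. It held 3 EGR sites, at -141 to -133 (written on the other strand), -109 to -101 and -38 to -30, and the half-site once, at -123 to -119. All 3 EGR sites lie within that span. The EGR sites are shown with 10 bases on each side and the match in capitals, because it is the motif that the EGR factors bind, and 231 of the 250 bases of the window are annotated as UTR.
Nab1 site at -141 (chr1:52500571-52500599, minus strand): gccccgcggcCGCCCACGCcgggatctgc
Nab1 site at -109 (chr1:52500539-52500567, minus strand): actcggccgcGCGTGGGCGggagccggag
Nab1 site at -38 (chr1:52500468-52500496, minus strand): gcggggcgggGCGGGGGCGgcggaggtgg
The Nab2 window, at chr10:127666704-127666953, minus strand, held none of these motifs, which says only that the letters are not in those 250 bases. This window lies inside the annotated gene span and does not reach the annotated gene start at 127668568, which was not searched. A match is a description of the sequence and was not tied to any measurement here.

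Egr1 (ENSMUSG00000038418) lies on chromosome 18 of GRCm38 at 34859823 to 34864984, plus strand. Egr2 (ENSMUSG00000037868) lies on chromosome 10 at 67535475 to 67542188, plus strand, and Egr3 (ENSMUSG00000033730) on chromosome 14 at 70077203 to 70082614, plus strand. Nab1 (ENSMUSG00000002881) spans chromosome 1 from 52457294 to 52500679 and Nab2 (ENSMUSG00000025402) chromosome 10 from 127660918 to 127668568, both on the minus strand. Of the 5 genes, Nab2 alone shares annotated exon bases with other genes: 1050 of its 2941 exon bases (35.7%) with the antisense gene Gm16229, 151 with Nemp1 and 40 with Stat6, all on the opposite strand. Whether reads were counted by strand is not given in the sources used here, so Nab2 counts are uncertain to that extent. Gm16229 had at most 5 counts in any sample.

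The first question was how much of each gene the cells held, and for this FPKM was used, which divides by gene length and so allows genes to be set side by side. In unstimulated untreated cells the corepressors were the more abundant group, with Nab2 at 21.02 ± 0.847 FPKM (mean ± SD, n = 4) and Nab1 at 15.5 ± 0.943, above Egr1 at 6.83 ± 1.35, Egr3 at 5.002 ± 1.56 and Egr2 at 1.44 ± 0.312. All 4 unstimulated untreated samples and all 4 unstimulated PGE2 samples ranked Nab2 above Nab1 and both above the 3 EGR genes, and in each of these groups replicate 4 was the sample in which Egr3 stood above Egr1. In stimulated untreated cells Egr1 led with 61.8 ± 6.10 FPKM, followed by Nab2 at 46.3 ± 5.88, Egr3 at 35.7 ± 4.99, Nab1 at 21.4 ± 2.00 and Egr2 at 18.6 ± 5.60, although in replicate 1 Egr2 exceeded Nab1. In stimulated PGE2 cells Egr1 was at 35.1 ± 8.56 FPKM, Nab2 at 30.2 ± 3.86, Egr3 at 19.1 ± 6.36, Nab1 at 18.8 ± 2.04 and Egr2 at 8.98 ± 3.73. There the order was less even, since Nab1 exceeded Egr3 in replicates 3 and 4 and Nab2 exceeded Egr1 in replicate 4. The plot of levels by sample shows all values on the CPM scale, which is also used for the sample values below, while the tests were made on the counts.

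**Figure D1:**
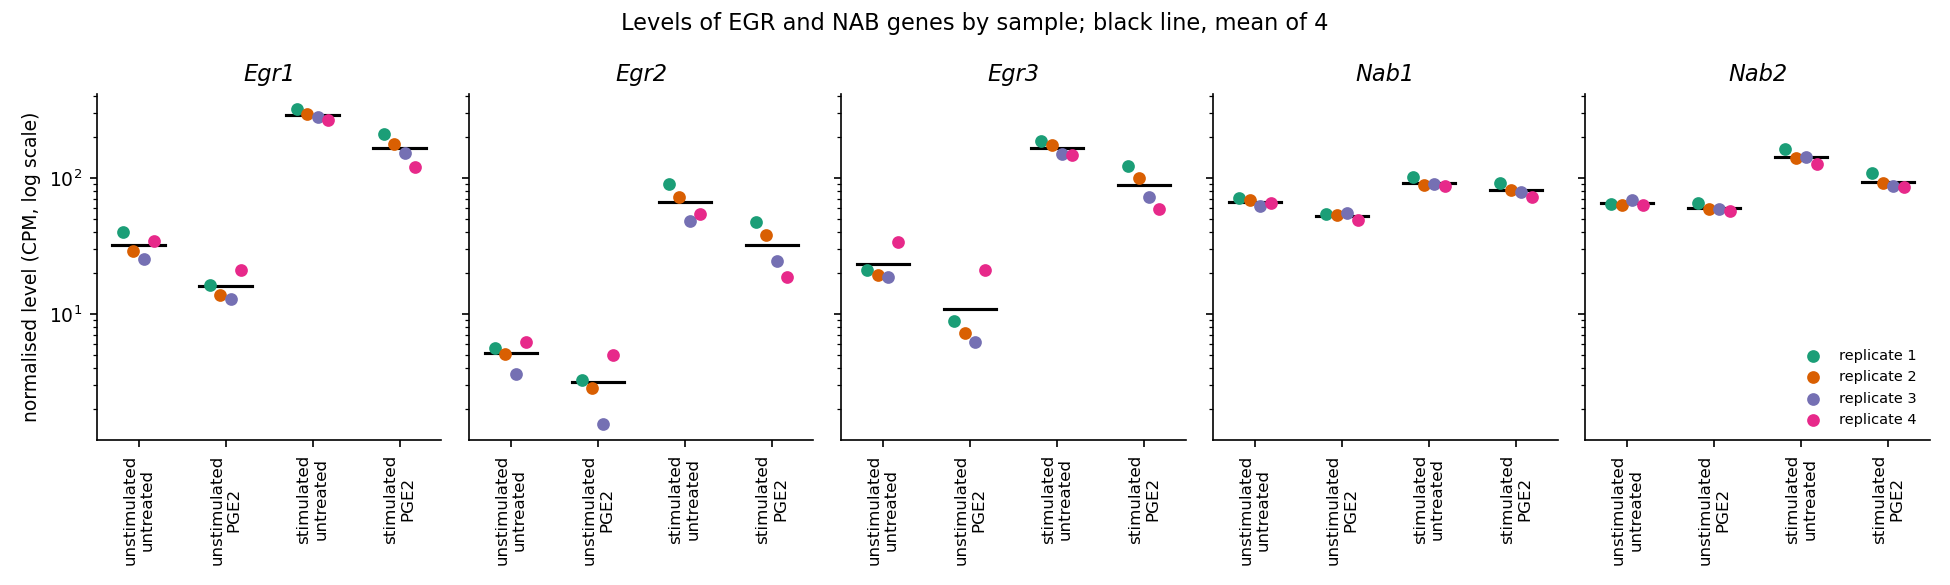
Normalised level of each gene (CPM, log scale) in every sample of the 4 groups, with replicates by colour and the mean of 4 as a black line. All 5 genes were higher in both stimulated groups than in both unstimulated groups, and the 3 EGR genes moved over a far wider range than Nab1 or Nab2.

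Bead stimulation asks how the genes answer CD3 and CD28 engaged together, since no group received beads against CD3 alone. Egr1, which couples receptor signalling to activation genes, was at 39.7, 29.1, 25.4 and 34.5 CPM in unstimulated untreated replicates 1 to 4 and at 320.0, 296, 281 and 267 CPM in the stimulated untreated ones. Egr2 went from 5.60, 5.09, 3.63 and 6.23 CPM to 89.4, 72.8, 48.5 and 54.6 CPM. Egr3 went from 20.9, 19.2, 18.6 and 34.0 CPM to 188, 174, 149.9 and 148 CPM. The groups lay apart for all 3 genes, and the lowest stimulated sample was several times the highest unstimulated one. In bulk RNA a higher level in each cell cannot be told apart from more cells with the transcript. The rise of Egr2 was the largest of the 5, at 12.9-fold (log2 fold change 3.69 with SE 0.22, edgeR adjusted p = 3.66e-08), followed by Egr1 at 8.995-fold (3.17, SE 0.13, adjusted p = 6.76e-09) and Egr3 at 7.06-fold (2.82, SE 0.18, adjusted p = 5.69e-08).

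The corepressors rose less. Nab2 was at 64.1, 63.7, 69.2 and 63.1 CPM in unstimulated untreated cells and at 163, 139.5, 143 and 126 CPM after beads, a rise of 2.18-fold (log2 fold change 1.13, SE 0.089, edgeR adjusted p = 2.91e-07). Nab1 went from 71.0, 68.8, 62.4 and 65.4 CPM to 102, 89.1, 90.2 and 86.9 CPM, or 1.37-fold (0.45, SE 0.076, adjusted p = 0.00018). Both pairs of groups lay apart. All 5 genes thus passed the test (an adjusted p below 0.05) in the upward direction, where 31.7% of the 14205 genes tested did. Of the 5, 4 were also differentially expressed genes (DEGs, which in addition change at least 2-fold), where 11.5% of all genes were upward DEGs. Groups without overlap, upward, were found for 5 of 5 genes and for 30.4% of all genes tested.

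With PGE2 present the beads still raised all 5 genes. Unstimulated PGE2 cells held Egr1 at 16.4, 13.7, 12.8 and 20.98 CPM and stimulated PGE2 cells at 211, 177, 154 and 119.6 CPM, a rise of 10.5-fold (log2 fold change 3.39, SE 0.21, edgeR adjusted p = 1.19e-06). Egr2 rose 10.3-fold (3.36, SE 0.37, adjusted p = 1.79e-05) and Egr3 8.22-fold (3.04, SE 0.39, adjusted p = 5.12e-05). The standard errors of these EGR changes were larger than without PGE2, and replicates were more widely spread, with a coefficient of variation of 40.5% for Egr2 and 32.2% for Egr3 in stimulated PGE2 cells against 27.9% and 11.8% in stimulated untreated cells. Nab1 rose 1.55-fold (0.63, SE 0.089, adjusted p = 9.93e-05) and Nab2 1.57-fold (0.65, SE 0.092, adjusted p = 0.000102), and neither reached 2-fold. The 5 passes stand beside 32.5% of 14507 genes tested, the 3 DEGs beside 12.7%, and the 5 genes without overlap beside 30.1%.

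**Figure D2:**
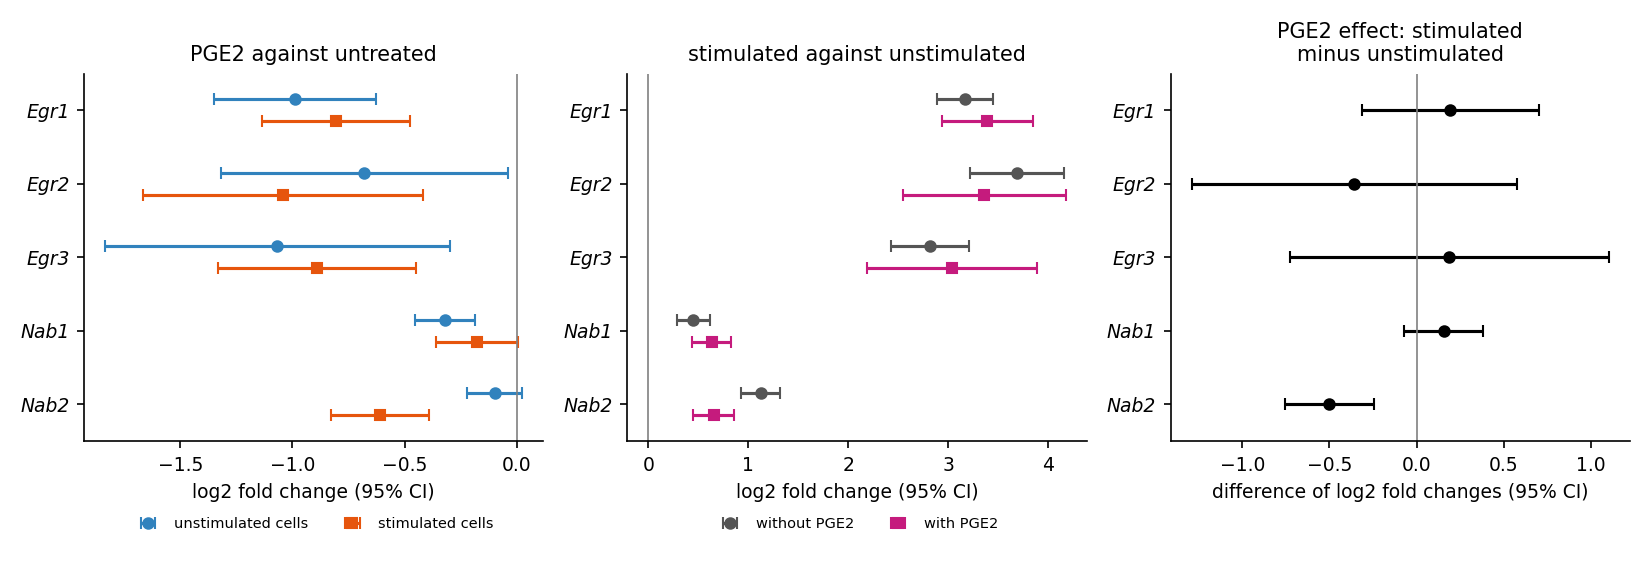
Log2 fold changes with 95% confidence intervals of the 5 genes for PGE2 against untreated cells (left), for stimulated against unstimulated cells (middle) and for the difference between the PGE2 effects in stimulated and unstimulated cells (right). The EGR genes rose by 2.82 to 3.69 on the log2 scale after beads, every PGE2 estimate lay below 0, and only the interval of Nab2 left out 0 in the right panel.

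The next comparison asked what PGE2 did in cells kept in IL-2 alone. Egr1 was at 39.7, 29.1, 25.4 and 34.5 CPM untreated and at 16.4, 13.7, 12.8 and 20.98 CPM with PGE2, so that the highest PGE2 sample stayed under the lowest untreated one. The PGE2 level was 50.5% of the untreated one (95% CI 39.3% to 64.8%, log2 fold change -0.99, SE 0.16, edgeR adjusted p = 0.00103). Nab1 was at 71.0, 68.8, 62.4 and 65.4 CPM untreated and at 54.1, 53.5, 54.9 and 48.7 CPM with PGE2, again without overlap, and fell to 80.1% (95% CI 73.1% to 87.8%, -0.32, SE 0.060, adjusted p = 0.0023). Egr1 and Nab1 kept their calls when any 1 replicate was left out.

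Egr3 was at 20.9, 19.2, 18.6 and 34.0 CPM untreated and at 8.89, 7.21, 6.198 and 21.2 CPM with PGE2. The groups overlapped because replicate 4 was the highest of its group in both, although Egr3 was lower with PGE2 in 4 of 4 samples of the same number. Egr3 fell to 47.7% (95% CI 28.01% to 81.4%, log2 fold change -1.07, SE 0.35, edgeR adjusted p = 0.0408) and was the only DEG of the 5 in this comparison. This call was lost in 7 of the 8 fits that left out 1 replicate, with adjusted p values up to 0.117, and held in the 8th, without PGE2 replicate 4 (-1.63, adjusted p = 0.000306). The other immediate early genes were also often highest in replicate 4, 13 of 20 in untreated and 14 of 20 in PGE2 cells, against 28.8% and 26.002% of all genes. The part of replicate 4 in the result was otherwise not tested.

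Egr2 was at 5.60, 5.09, 3.63 and 6.23 CPM untreated and at 3.23, 2.84, 1.54 and 4.99 CPM with PGE2, lower in 4 of 4 samples of the same number but with overlapping groups. Its level with PGE2 was 62.5% of the untreated one (95% CI 40.0% to 97.5%, log2 fold change -0.68, SE 0.29), which did not pass after adjustment (edgeR adjusted p = 0.109). Samples of the same number deviated together in these 2 groups, and with the replicate number as a block Egr2 passed (-0.73, SE 0.14, adjusted p = 0.000451). Nab2 was at 64.1, 63.7, 69.2 and 63.1 CPM untreated and at 65.1, 58.9, 58.8 and 57.3 CPM with PGE2, lower in 3 of 4 samples of the same number. Nab2 did not pass (-0.097, 95% CI -0.22 to 0.026, adjusted p = 0.229, and 0.0627 with the block).

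In unstimulated cells 3 of the 5 genes therefore passed, all downward, beside 15.5% of 14505 genes tested, and 1 was a DEG beside 1.92% that were downward DEGs. Groups without overlap were found for 2 of the 5 genes and, downward, for 16.8% of all genes. With the replicate block 4 of the 5 passed downward, beside 24.2% of all genes.

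The same question was then asked in stimulated cells. Egr1 was at 320.0, 296, 281 and 267 CPM untreated and at 211, 177, 154 and 119.6 CPM with PGE2, without overlap, and fell to 57.2% (95% CI 45.5% to 71.9%, log2 fold change -0.81, SE 0.15, edgeR adjusted p = 0.00886). Egr2 was at 89.4, 72.8, 48.5 and 54.6 CPM untreated and at 47.1, 38.0, 24.4 and 18.6 CPM with PGE2. The gap between the groups was narrow, and Egr2 fell to 48.6% (95% CI 31.5% to 75.0%, -1.04, SE 0.28, adjusted p = 0.0439) and was the only DEG of the 5 here. Egr3 was at 188, 174, 149.9 and 148 CPM untreated and at 123, 99.9, 72.3 and 59.2 CPM with PGE2, without overlap, and fell to 53.9% (95% CI 39.7% to 73.2%, -0.89, SE 0.20, adjusted p = 0.0216). In all 5 genes, Nab1 and Nab2 included, stimulated PGE2 replicate 1 was the highest and replicate 4 the lowest of their group. Replicate 1 was also the highest for all 5 in stimulated untreated cells. The other immediate early genes were often highest in replicate 1 too, 11 of 20 in stimulated untreated and 14 of 20 in stimulated PGE2 cells, against 34.6% and 32.9% of all genes. The part of replicate 1 in the result was not tested beyond leaving it out.

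The calls of Egr2 and Egr3 rested on all 8 samples to different degrees. Egr2 lost its call in 7 of 8 fits that left out 1 replicate (adjusted p up to 0.129) and kept it without stimulated PGE2 replicate 1 (adjusted p = 0.0139). Egr3 lost it without untreated replicate 1 (adjusted p = 0.064), untreated replicate 2 (0.0698) or PGE2 replicate 3 (0.0715). Egr1 passed in all 8. With the replicate block, which the deviations of same-numbered samples called for here as well, Egr2 was at -1.07 (SE 0.091, adjusted p = 1.42e-05) and Egr3 at -0.93 (SE 0.094, adjusted p = 4.2e-05).

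Nab2 was at 163, 139.5, 143 and 126 CPM untreated and at 109, 91.5, 86.9 and 85.7 CPM with PGE2 in stimulated cells, and the groups lay apart. It fell to 65.6% (95% CI 56.3% to 76.4%, log2 fold change -0.61, SE 0.099, edgeR adjusted p = 0.00461) and passed in all 8 fits that left out 1 replicate. The 4 differences between samples of the same number were close together, from -0.72 to -0.56 on the log2 scale. Of the genes that share exon bases with Nab2, Nemp1 was at 96.0 ± 4.63 CPM untreated and 82.1 ± 6.45 CPM with PGE2, Stat6 at 369.8 ± 10.4 and 388 ± 3.48 CPM, and Gm16229 at 0 to 5 counts per sample (SD, n = 4), and their part in the Nab2 value was not tested. Nab1 was at 102, 89.1, 90.2 and 86.9 CPM untreated and at 91.5, 81.5, 79.0 and 72.2 CPM with PGE2, lower in 4 of 4 samples of the same number with overlapping groups. Nab1 did not pass (-0.18, 95% CI -0.36 to 0.0064, adjusted p = 0.198), but did so with the replicate block (-0.18, SE 0.041, adjusted p = 0.00603).

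In stimulated cells 4 of the 5 genes passed, all downward, beside 3.8% of 13922 genes tested. The single DEG stands beside 0.546% of genes that were downward DEGs, and 4 genes without overlap beside 8.32%. With the replicate block all 5 passed downward, beside 20.7% of all genes.

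**Figure D3:**
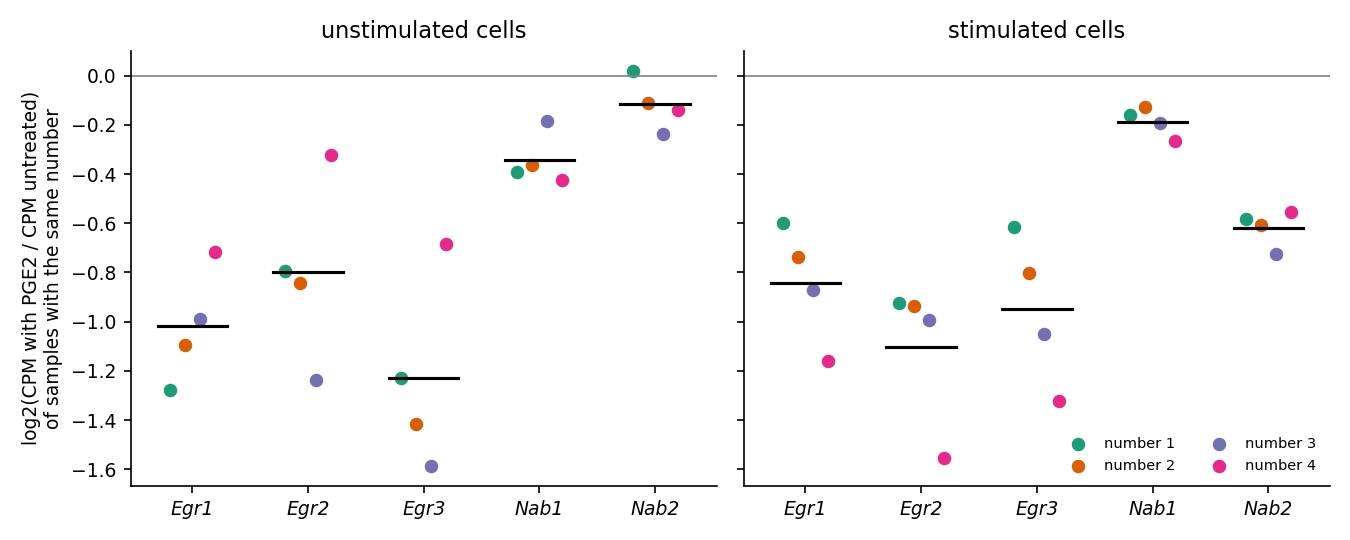
Log2 ratio of the CPM with PGE2 to the CPM untreated for samples of the same number, in unstimulated (left) and stimulated cells (right), with the mean of 4 as a black line. All 40 ratios but 1 (Nab2, number 1, unstimulated) lie below 0, and the Nab2 ratios lie between -0.24 and 0.021 on the left and between -0.72 and -0.56 on the right.

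Whether PGE2 acted differently in the 2 states was tested as an interaction over all 16 samples, where a negative value means that the gene fell more in stimulated cells. For Nab2 the PGE2 effect was -0.097 in unstimulated and -0.61 in stimulated cells, and the difference was -0.50 (SE 0.12, 95% CI -0.76 to -0.24, unadjusted p = 0.000679, edgeR adjusted p = 0.0677), so it did not pass over the 15096 genes tested. With a block for each replicate number within each state, chosen after seeing the data, the Nab2 difference was -0.50 (SE 0.062, adjusted p = 3.59e-05). The Nab2 difference also passed with DESeq2 (adjusted p = 0.0294). For the EGR genes the difference was 0.19 (95% CI -0.31 to 0.70) for Egr1, -0.36 (-1.29 to 0.58) for Egr2 and 0.19 (-0.73 to 1.10) for Egr3, and for Nab1 it was 0.16 (-0.072 to 0.38), with adjusted p values of 0.781 to 0.969. Each of these intervals spans changes in both directions. Of the 5 genes 0 passed, beside 0.749% of all genes, and with the block within each state 1 passed, beside 11.4%. At an unadjusted p under 0.05, Nab2 was the only one of the 5 in the fit without a block. With the block within each state Nab1 was also under 0.05, in the other direction (0.15, SE 0.062, edgeR unadjusted p = 0.0242, adjusted p = 0.133).

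Ordered by level, each of the 5 genes ran from stimulated untreated through stimulated PGE2 and unstimulated untreated to unstimulated PGE2. The middle step, from unstimulated untreated to stimulated PGE2, was 6.19-fold for Egr2, 5.10-fold for Egr1 and 3.78-fold for Egr3, and 1.42-fold for Nab2 and 1.20-fold for Nab1, and all 5 passed (edgeR adjusted p from 3.83e-06 to 0.0187) beside 28.2% of the 14326 genes tested. The Nab1 step no longer passed without unstimulated untreated replicate 3 (adjusted p = 0.0614). Neighbours that did not differ beyond their spread without the block were the unstimulated pair for Egr2 and Nab2 and the stimulated pair for Nab1. Cells stimulated under PGE2 thus held more of every EGR gene than cells without beads, at 57.2%, 48.6% and 53.9% of the stimulated untreated level for Egr1, Egr2 and Egr3.

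The sum of FPKM over the 3 EGR genes was set against that over the 2 NAB genes in each sample, as a description of messenger levels without a test. Unstimulated untreated cells held 0.36 ± 0.079 (SD, n = 4) units of EGR messenger for 1 of NAB, with 0.390, 0.322, 0.283 and 0.461 in replicates 1 to 4. Unstimulated PGE2 cells held 0.188, 0.167, 0.141 and 0.349, and here replicate 4 alone overlapped the untreated range. After beads the ratio was 1.74, 1.84, 1.57 and 1.71 untreated and 1.496, 1.44, 1.19 and 0.9748 with PGE2. The stimulated groups lay apart, and stimulated PGE2 replicate 4 was the only stimulated sample with less EGR than NAB messenger. Within the EGR sum, Egr1 made up 51.7% to 56.2%, Egr3 30.02% to 37.4% and Egr2 10.8% to 15.8% on average over the 4 groups. In single samples the shares ran from 42.7% to 60.6% for Egr1, from 28.4% to 44.8% for Egr3 and from 9.62% to 18.7% for Egr2.

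**Figure D4:**
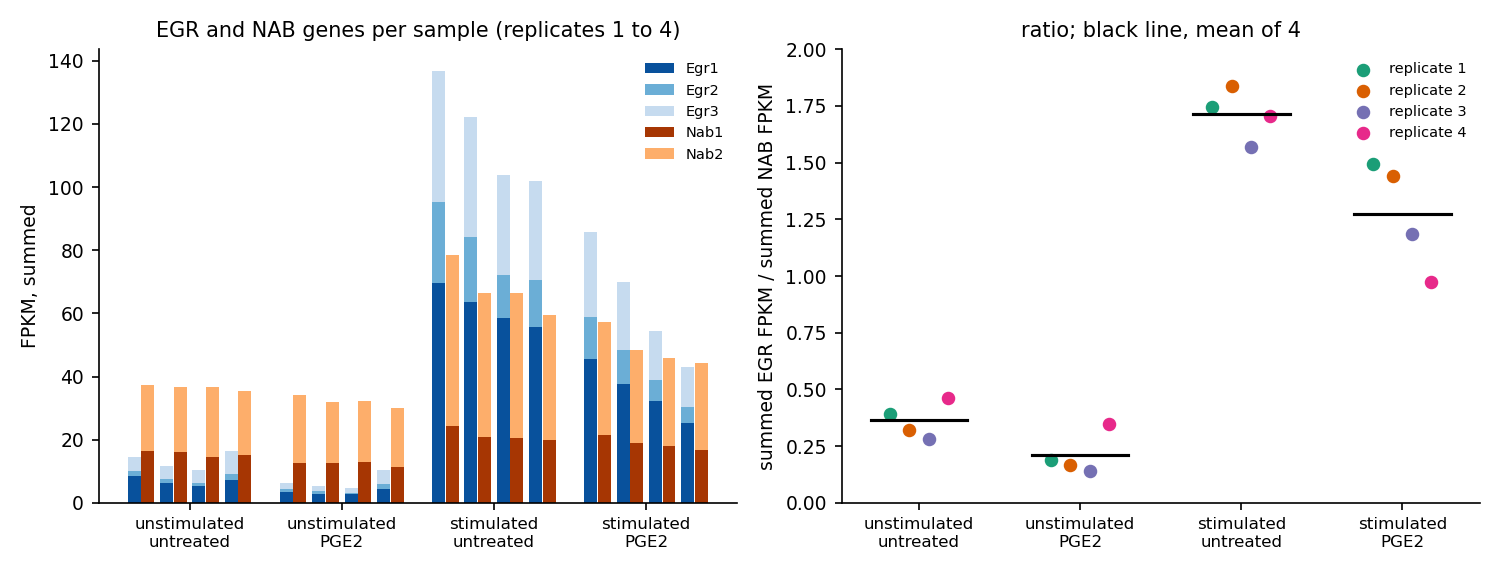
Left, FPKM of the EGR genes (blue, stacked) and of the NAB genes (brown, stacked) in each sample, replicates 1 to 4 from left to right within a group. Right, the ratio of the EGR sum to the NAB sum by sample with the mean of 4 as a black line, at 0.36 in unstimulated untreated, 0.21 in unstimulated PGE2, 1.71 in stimulated untreated and 1.27 in stimulated PGE2 cells.

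Egr4, the remaining EGR family gene, had 3 to 16 counts per unstimulated sample, too few for a PGE2 test there. In stimulated untreated cells it was at 14.1, 11.7, 10.1 and 7.52 CPM and in stimulated PGE2 cells at 9.48, 7.32, 4.37 and 3.29 CPM, with overlapping groups. Beads raised Egr4 by 4.99 on the log2 scale without PGE2 (SE 0.28, edgeR adjusted p = 2.59e-08) and by 4.82 with it (SE 0.48, adjusted p = 9.67e-06). Its PGE2 difference of -0.82 in stimulated cells did not pass (SE 0.31, adjusted p = 0.119), but passed with the replicate block (-0.86, adjusted p = 0.00038), with DESeq2 (-0.84, adjusted p = 0.0449) and without PGE2 replicate 1 (-1.12, adjusted p = 0.0311).

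The route from the T cell receptor to the EGR genes was described with 19 matched genes of ERK signalling, serum response factor and its partners, and NFAT. Beads without PGE2 raised 6 and lowered 8 of them (median log2 fold change -0.061, against -0.031 over all genes), with Nfatc1, the inducible NFAT gene, up by 1.43 (SE 0.088) and Nfatc3 down (-1.18, SE 0.081). With PGE2 the beads also raised 6 and lowered 8. Over all genes tested 31.7% rose and 34.8% fell after beads without PGE2, and 32.5% and 31.7% with it, so these counts lie near the background. PGE2 in stimulated cells lowered 3 and raised 0: the serum response factor partner Elk3 (-0.48, SE 0.077, edgeR adjusted p = 0.00443), Nfatc2 (-0.49, SE 0.089, adjusted p = 0.00849) and Nfatc1 (-0.55, SE 0.11, adjusted p = 0.0125), with a median over the list of -0.032. In unstimulated cells PGE2 raised 3, among them the kinase genes Braf (0.40, SE 0.059) and Map2k1 (0.38, SE 0.059), and lowered 2, among them Rasgrp1 (-0.37, SE 0.080), which activates RAS below the receptor (median -0.056). Over all genes PGE2 raised 6.04% and lowered 3.8% in stimulated cells, and raised 12.9% and lowered 15.5% in unstimulated cells, where the counts of the list are again near the background. With the replicate block these counts were 2 up and 4 down in stimulated and 4 up and 7 down in unstimulated cells. Over all genes the block gave 2662 up and 2882 down of 13922 in stimulated cells, and 3428 up and 3510 down of 14505 in unstimulated cells.

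Other immediate early genes share the fast induction of the EGR genes. Of 20 such genes 18 rose and 1 fell after beads without PGE2, with a median log2 fold change of 2.16, and 17 rose and 1 fell with PGE2, with a median of 1.85, beside the 31.7% and 32.5% of all genes that rose. The lowest adjusted p values were those of Myc (3.10, SE 0.15), the orphan receptor gene Nr4a1 (3.91, SE 0.20) and Dusp5 (2.27, SE 0.12), which encodes an ERK phosphatase. Under PGE2 in unstimulated cells the list median was 0.37, whereas the EGR estimates were -0.99, -0.68 and -1.07. There 3 of the 20 rose, namely Dusp5 (0.87, SE 0.11, edgeR adjusted p = 0.000137), Dusp1 (0.49, SE 0.11, adjusted p = 0.00608) and Btg2 (0.40, SE 0.092, adjusted p = 0.00778), and 2 fell, Myc (-0.97, SE 0.14, adjusted p = 0.000422) and Zfp36 (-0.31, SE 0.079, adjusted p = 0.013), which is near the 12.9% and 15.5% of all genes. The count of passes grew from 5 to 8 with DESeq2 or without number 4 in both groups, to 9 with no filter or without untreated replicate 4, and to 13 up and 4 down with the replicate block. Over all genes the block gave 3428 up and 3510 down of 14505 there. In stimulated cells the list median was -0.11, and 1 gene passed, Zfp36, which encodes a protein that destabilises cytokine messengers (-0.41, SE 0.077, adjusted p = 0.00922). With the block 2 rose and 9 fell there, beside 2662 up and 2882 down of 13922 genes tested. The number that passed was 5 with DESeq2, 4 with upper-quartile factors or no filter and 3 in 1 fit of 16 samples. It was 2 without untreated replicate 3, untreated replicate 4 or PGE2 replicate 4, and 3 without PGE2 replicate 1.

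**Figure D5:**
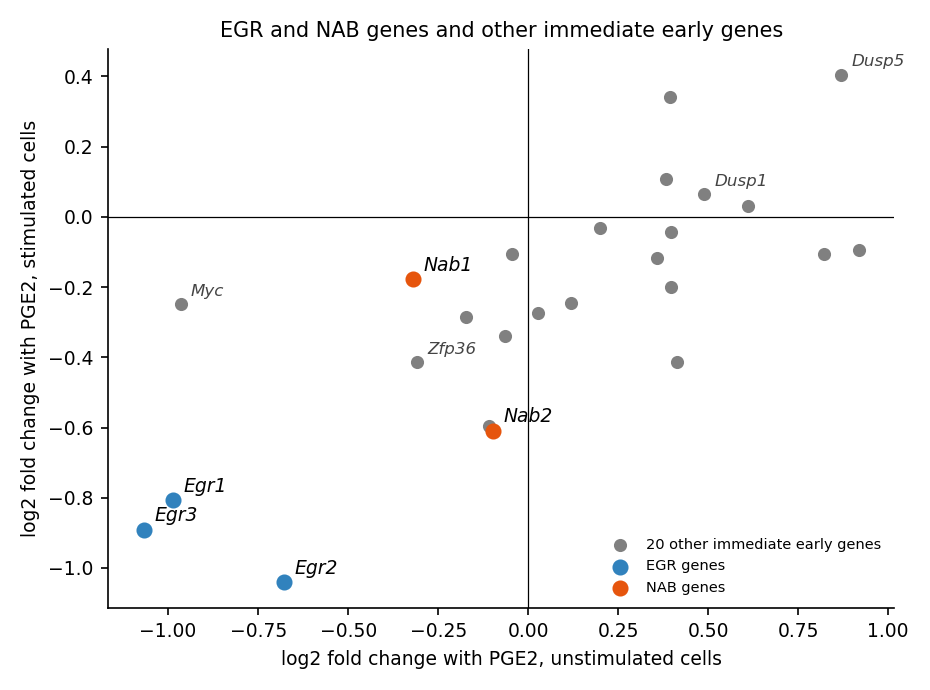
Log2 fold change with PGE2 in unstimulated cells (horizontal) and in stimulated cells (vertical) for the EGR genes (blue), the NAB genes (orange) and 20 other immediate early genes (grey), each point 1 gene. The EGR genes lie at the lower left, at -0.68 to -1.07 and -0.81 to -1.04, while the medians of the grey points are 0.37 and -0.11.

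Genes known as EGR2 or EGR3 targets in T cells (17 genes) did not move as 1 group. After beads without PGE2 8 rose and 6 fell (median log2 fold change -0.14), with Crtam, an adhesion receptor gene, up by 3.28 (SE 0.18), the cytokine signalling inhibitor Socs1 up by 1.88 (SE 0.11) and Dgka, which consumes diacylglycerol and so damps RAS, down (-1.54, SE 0.085). With PGE2 the beads raised 8 and lowered 4 (median 0.25), beside 31.7% of all genes up and 34.8% down without PGE2, and 32.5% and 31.7% with it. PGE2 raised 7 and lowered 2 in unstimulated cells (median 0.23) and raised 4 and lowered 2 in stimulated cells (median 0.0079), beside 12.9% up and 15.5% down, and 6.04% up and 3.8% down, of all genes. The ubiquitin ligase gene Cblb was higher with PGE2 by 0.54 (SE 0.075, edgeR adjusted p = 0.000318) in unstimulated and 0.58 (SE 0.075, adjusted p = 0.00152) in stimulated cells, and Fasl, the death ligand gene, by 1.88 (SE 0.20, adjusted p = 5.31e-05) and 1.49 (SE 0.20, adjusted p = 0.00191). Dgka was higher by 0.49 in stimulated cells (SE 0.087, adjusted p = 0.00759), and Crtam lower in unstimulated cells (-1.14, SE 0.15, adjusted p = 0.000209). Crtam was lower with PGE2 in stimulated cells too, at 179.5 ± 50.8 CPM untreated and 77.2 ± 24.4 CPM with PGE2 (mean ± SD, n = 4). The genes with test values given for stimulated cells are those with the lowest adjusted p, and the 2 that fell are not among them. With the block the counts were 10 up and 4 down in unstimulated and 4 up and 4 down in stimulated cells. Over all genes the block gave 3428 up and 3510 down of 14505, and 2662 up and 2882 down of 13922.

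Of 13 genes known as EGR1 targets, 7 rose and 2 fell after beads without PGE2 (median log2 fold change 0.96), and the same counts were found with PGE2 (median 0.45), beside 31.7% of all genes up and 34.8% down, and 32.5% and 31.7%. PGE2 lowered 3 and raised 0 in each state, namely Tnf, Id3 and Il2, where 15.5% of all genes fell in unstimulated and 3.8% in stimulated cells. In unstimulated cells the log2 fold change of Tnf, the inflammatory cytokine gene, was -1.21 (SE 0.17, edgeR adjusted p = 0.000357), that of Id3, an inhibitor of E proteins, -1.08 (SE 0.16, adjusted p = 0.000476) and that of the growth factor gene Il2 -3.18 (SE 0.76, adjusted p = 0.00903). The Il2 value rests on few reads, 10 to 112 counts per untreated and 1 to 18 per PGE2 library. In stimulated cells the changes of Tnf, Id3 and Il2 were -1.32 (SE 0.27, adjusted p = 0.0142), -1.37 (SE 0.13, adjusted p = 0.000324) and -1.95 (SE 0.47, adjusted p = 0.0305). The median over all 13 was 0.042 in unstimulated and -0.21 in stimulated cells. In stimulated cells 1 of the 13 was left without untreated replicate 2 or PGE2 replicate 3. With the block 4 rose and 3 fell in unstimulated and 2 rose and 5 fell in stimulated cells. Over all genes the block gave 3428 up and 3510 down of 14505, and 2662 up and 2882 down of 13922. What the levels of these genes owe to EGR factors was not tested.

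The list of NuRD genes held 13, among them Chd4, whose product NAB2 recruits, and Chd3. After beads without PGE2 6 rose and 5 fell (median log2 fold change 0.047), among them the deacetylase gene Hdac2 (0.87, SE 0.085), Mbd3 (0.63, SE 0.073) and Mta3 (-0.86, SE 0.094). With PGE2 6 rose and 4 fell (median 0.056). These counts stand beside 31.7% of all genes up and 34.8% down without PGE2, and 32.5% and 31.7% with it. PGE2 in unstimulated cells lowered 4 and raised 0, among them Rbbp7 (-0.56, SE 0.074, edgeR adjusted p = 0.000218), Hdac2 (-0.49, SE 0.065, adjusted p = 0.000251) and Mbd3 (-0.30, SE 0.050, adjusted p = 0.0011), with a median of -0.049, beside 15.5% of all genes that fell and 12.9% that rose. In stimulated cells 1 fell, beside 3.8% of all genes, namely Chd3 (-0.29, SE 0.071, adjusted p = 0.0296), and this call was lost in 6 of the 8 fits that left out 1 replicate. With the block 2 rose and 5 fell in each state. Over all genes the block gave 3428 up and 3510 down of 14505 in unstimulated cells, and 2662 up and 2882 down of 13922 in stimulated cells.

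In the interaction 1 gene of these lists passed, the antiproliferative gene Btg2 (-0.58, SE 0.13, edgeR adjusted p = 0.0415), and 12 of the 16 fits that left out 1 replicate ended that call. The list medians were -0.015 for the receptor route, -0.38 for the immediate early genes, -0.10 for EGR2 or EGR3 targets, -0.11 for EGR1 targets and 0.072 for the NuRD genes, beside 0.051 over all genes tested. With the block within each state 1 immediate early gene was above and 12 were below 0 among those that passed. Over all genes that block gave 1238 above and 488 below 0 of 15096 tested.

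Genes with the pattern most like each of the 5 were sought among 12253 genes whose mean reached 1 CPM, by the root mean square distance between log2 CPM profiles over the 16 samples, each centred on its own mean. Egr1 was nearest to Ppan (0.249 on the log2 scale), Crtam (0.259) and Bcl2l1 (0.261). Egr2 was nearest to Egr1 (0.312), Slc25a33 (0.336) and Eomes (0.346), and Egr3 to Egr1 (0.317), Chac1 (0.324) and Shmt1 (0.330). Egr2 stood 14th and Egr3 19th in the order of genes nearest to Egr1, so that the 3 EGR genes were close to one another. Nab1 was nearest to Eif3m (0.0686), Get4 (0.0693) and Ptcd2 (0.0694), and Nab2 to Cdk17 (0.134), Zfp827 (0.136) and Eed (0.137). Among the genes nearest to Nab2, Nab1 had rank 911, and among those nearest to Egr1, Nab2 had rank 1592. A distance of this kind counts the size of a change as well as its direction.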

How the data were processed

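Poly(A) RNA of 16 samples was sequenced in paired-end mode, and the authors aligned it to GRCm38 with Hisat2 2.0.5 and counted it with featureCounts 1.5.0-p3. The deposited values are unnormalised whole-number counts, 1 per gene and sample, and the deposited FPKM values were derived by the authors from counts and gene length. The annotation release and the use of strand are not given in the sources used here. Groups came from the labels, and 0 other columns of per-sample values were left out.

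From the counts, edgeR 4.0.16 (R 4.3.3) was run with filterByExpr (minimum count 10), TMM factors and the quasi-likelihood test, two-sided, with Benjamini-Hochberg adjustment over all genes tested. Pairwise fits held 8 samples and the interaction 16. The scripts were tested on simulated counts. DEGs passed at 0.05 and moved 2-fold or more. CPM used TMM factors of all 16 samples (0.880 to 1.09), and log2 CPM a prior count of 2. Depth was 22678254 to 42950763 counts. Whether the spread between replicates or counting error limited precision more was not tested. Coordinates and exons were from GENCODE M21 (GRCm38), promoters from RefSeq.

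Whether replicate numbers pair samples was checked by correlating deviations from group means. Every same-number pair was over 0.1 for PGE2 in unstimulated cells, PGE2 in stimulated cells, stimulation without PGE2 and stimulated PGE2 against unstimulated untreated cells, but not for stimulation with PGE2 (lowest r = 0.0439). In all, 21 of 24 same-number and 10 of 72 other pairs exceeded 0.1.

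Alternatives were DESeq2 1.42.0, RLE factors, no filter, the replicate block, 1 fit of 16 samples, leaving out each replicate, and likeness over 4 group means. Upper-quartile factors, leaving out number 4, and the block within each state were chosen after seeing the data. Named were the 5 genes, up to 3 genes per list and comparison with the lowest adjusted p among those that passed (Btg2 and Zfp36 under PGE2 in unstimulated cells were named beyond this, after their values were seen), genes sharing exon bases with Nab2, and the 3 genes most like each of the 5 (Egr2, Egr3 and Nab1 were named by rank after their values were seen). Of 20 genes of the receptor route, 19 were matched by symbol. The genes and lists were chosen with earlier results of these data known.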

Additional observations from a re-analysis of the deposited data

Results flagged for a closer look

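In 20 tests of a sample that stands apart within its group of 4 (5 genes in 4 groups), 2 samples lay further from the rest than Dixon's 95% limit, which chance gives in about 1 of 20 groups. Egr3 in unstimulated untreated replicate 4 was at 34.0 CPM, and its gap to the next sample was 0.854 of the group's range. Nab2 in unstimulated untreated replicate 3 was at 69.2 CPM, with a gap of 0.834 of the range.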

How the results depend on the processing

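All 5 genes passed in both stimulation comparisons under every alternative and in every fit that left out 1 replicate, and no pairwise estimate of the 5 genes changed direction. Of genes passing for PGE2 in unstimulated cells, 3 became 2 to 4 when 1 replicate was left out, and in stimulated cells 4 became 2 to 4, with 2 without untreated replicate 1, untreated replicate 2 or PGE2 replicate 3. In the interaction 0 became 1 with DESeq2, upper-quartile factors, the replicate block or the block within each state, and 0 to 1 when 1 replicate was left out, the 1 being Nab2 each time (-0.52, -0.51, -0.50, -0.50, and -0.58 without stimulated PGE2 replicate 1). The difference of Egr3 turned to -0.0686 without unstimulated untreated replicate 4, -0.0181 without unstimulated PGE2 replicate 3 and -0.0115 without stimulated PGE2 replicate 1, and ranged up to 0.73. The causes were not tested.

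Over all genes, the 4122 that passed for PGE2 in unstimulated cells became 6938 with the replicate block. For PGE2 in stimulated cells 1370 became 2067 with DESeq2, 5544 with the block, 2161 in 1 fit of 16 samples and 630 to 1854 when 1 replicate was left out. For the interaction 113 became 235 with DESeq2, 408 with the replicate block, 1726 with the block within each state, 170 without number 4 and 44 to 217 when 1 replicate was left out. The block changed no other call of the 5 genes than those of Egr2 in unstimulated cells, Nab1 in stimulated cells and Nab2 in the interaction. In stimulation with PGE2, whose numbers did not all pair, the 5 genes passed with and without it.

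Of the single genes, Egr3 in unstimulated cells missed the threshold with DESeq2 (adjusted p = 0.0727) and Egr3 in stimulated cells in 1 fit of 16 samples (0.0532). Without number 4 in both groups, Egr2 passed in unstimulated cells (-0.90, adjusted p = 0.0381) and missed in stimulated cells (-0.93, adjusted p = 0.0773). Upper-quartile factors moved the median of all genes in the stimulation comparisons to -0.128 without and -0.125 with PGE2, and the DEGs with PGE2 from 1841 up and 1369 down to 1560 and 1758. The 5 genes still rose. Over 4 group means in place of 16 samples, the 3 nearest genes of Egr2 and Egr3 shared 1 each with those named and those of Egr1, Nab1 and Nab2 shared 0. With 4 samples a group, intervals of the EGR differences were wide, and low counts limited Egr4 and Il2 in unstimulated cells.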
